A study of Homo sapiens with 12 samples.

Results

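The 10 genes described here encode partners to which the MLL1 (KMT2A) protein is fused in acute leukemia and subunits of the complexes that drive RNA polymerase II elongation: AFF1, AFF3, AFF4, MLLT1, MLLT3, MLLT6, MLLT10, ELL, CDK9 and CCNT1. They are defined by function, out of 19974 protein-coding genes, and the readout of each gene was the set of ATAC-seq peaks that overlapped its gene body with 10 kb on each side. The 10 loci were among 17125 gene loci with enough peaks to test, and together held 254 of the 334907 regions obtained by merging the peaks of all libraries. In ATAC-seq, the Tn5 transposase cuts accessible DNA, and a peak is a stretch where more cut fragments were read than in the surrounding sequence.

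Bulk ATAC-seq was performed on 3 human AML cell lines, with 2 control libraries and 2 libraries treated with 500 nM VTP50469 for 16 h in each line, or 12 libraries in 6 groups. VTP50469 is a Menin inhibitor, and all cells, controls included, were cryopreserved before nuclei were isolated. MOLM13 cells express MLL1 fused to MLLT3 (AF9), MV4-11 cells express MLL1 fused to AFF1 (AF4), and OCI-AML3 cells carry mutant NPM1 and no MLL1 fusion. MV4-11 was grown in IMDM and the other lines in RPMI, so that line and medium cannot be told apart, and each genotype was represented by a single line. Reads from the fused and the intact copy of MLLT3 or AFF1 cannot be told apart in a peak list.

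Menin tethers MLL1 and its fusion proteins to chromatin, and the inhibitor blocks that contact. In the fusion, the partner replaces the C-terminal part of MLL1 and brings elongation machinery to the target genes. AFF1 and AFF4 are scaffolds of the super elongation complex, in which MLLT1 (ENL) or MLLT3 reads acetylated histones, ELL promotes elongation, and CDK9 with cyclin T1 (CCNT1) forms the kinase P-TEFb that phosphorylates the paused polymerase. AFF3 is a relative of AFF1 and AFF4. MLLT10 (AF10) and MLLT6 (AF17) belong to the complex of DOT1L, the H3K79 methyltransferase.

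The libraries held 68670 to 145364 peaks, with 115689 to 145364 in MV4-11 and at most 103034 in the other lines, and covered 15.2 to 36.8 Mb. Median reads over a summit were 9 to 13, and the shallowest called peaks had 4 or 5, so the absence of a peak does not show that a region was closed. Among the myeloid markers with a start site that could be checked, 3 to 5 of 5 had a peak there in each library, and CEBPA, FLT3 and KIT had one in all 12. Promoters of erythroid markers had none (0 of 3 in any library). Of 3 T cell markers 1 to 2 were open per library, with CD8A in all 12, and of 2 B cell markers 0 to 2, with PAX5 in 8.

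The promoters of the members ranged from 0 to 39 CpG dinucleotides, and the 250 bases upstream of 6 start sites show part of this range (RefSeq sequence, GRCh38.p14, 5′ to 3′ on the strand of the gene). The set holds both fusion partners of these lines, both start sites of AFF3, MLLT1, and CCNT1 with the highest start-site enrichment. Capitals mark matches on either strand to 7 short motifs: GGAAGT (ETS core), TGTGGT (RUNX core), TGANTCA (AP-1), CCAAT (NF-Y), GGGCGG (SP and KLF), CACGTG (E-box) and TGACGT (CRE core).
AFF1, start site 1, chr4:86934761-86935010, plus strand: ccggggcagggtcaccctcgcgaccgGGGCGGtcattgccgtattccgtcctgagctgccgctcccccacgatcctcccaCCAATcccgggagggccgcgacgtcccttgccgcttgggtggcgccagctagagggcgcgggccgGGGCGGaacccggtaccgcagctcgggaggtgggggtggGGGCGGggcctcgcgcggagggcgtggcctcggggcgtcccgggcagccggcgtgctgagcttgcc
AFF3, start site 1, chr2:100142591-100142840, minus strand: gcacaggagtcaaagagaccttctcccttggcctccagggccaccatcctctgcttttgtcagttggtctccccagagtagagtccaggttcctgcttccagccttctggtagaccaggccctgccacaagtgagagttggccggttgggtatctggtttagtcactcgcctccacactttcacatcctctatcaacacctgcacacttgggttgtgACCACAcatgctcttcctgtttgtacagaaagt
AFF3, start site 2, chr2:100105584-100105833, minus strand: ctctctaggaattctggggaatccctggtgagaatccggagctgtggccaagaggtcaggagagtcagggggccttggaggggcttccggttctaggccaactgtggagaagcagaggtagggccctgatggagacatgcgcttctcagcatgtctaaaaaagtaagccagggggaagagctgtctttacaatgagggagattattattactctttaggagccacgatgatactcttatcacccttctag
MLLT1, chr19:6279976-6280225, minus strand: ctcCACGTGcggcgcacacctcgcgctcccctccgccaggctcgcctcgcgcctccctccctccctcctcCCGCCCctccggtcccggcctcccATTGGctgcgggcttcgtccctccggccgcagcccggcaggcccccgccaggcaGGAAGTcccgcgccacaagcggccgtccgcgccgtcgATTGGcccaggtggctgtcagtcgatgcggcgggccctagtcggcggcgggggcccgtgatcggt
MLLT3, chr9:20622500-20622749, minus strand: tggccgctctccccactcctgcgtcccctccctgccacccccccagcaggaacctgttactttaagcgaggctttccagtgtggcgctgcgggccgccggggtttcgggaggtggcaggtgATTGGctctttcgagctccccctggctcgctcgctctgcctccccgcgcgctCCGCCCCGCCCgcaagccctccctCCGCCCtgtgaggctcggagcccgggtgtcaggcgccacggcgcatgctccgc
CCNT1, chr12:48716708-48716957, minus strand: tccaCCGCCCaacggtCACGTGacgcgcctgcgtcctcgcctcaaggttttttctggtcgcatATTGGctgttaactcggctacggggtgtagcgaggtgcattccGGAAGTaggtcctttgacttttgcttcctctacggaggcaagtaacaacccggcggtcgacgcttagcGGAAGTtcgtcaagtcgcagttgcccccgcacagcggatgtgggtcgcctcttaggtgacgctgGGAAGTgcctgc
The promoter of AFF1 held 32 CpG, that of MLLT1 34, and those of MLLT3 and CCNT1 24 each. By contrast, the first AFF3 promoter held 2 and the second 4, which placed them at the 14.6th and 29.2nd percentile of 34961 RefSeq promoters of the same length. The promoter of the first MLLT10 site held 13 and that of the second CCNT1 site 0. The median over the 14 promoters of the members was 26.5 CpG, against 11 over all promoters. The SP and KLF motif was found in 10 of the 14 (71.4%, against 42.7% of all promoters), the NF-Y motif in 6 (42.9% against 32.0%), the ETS core in 4 (28.6% against 19.5%) and the E-box in 3 (21.4% against 6.35%). The RUNX core was found in 1, the first AFF3 promoter (11.0% of all promoters), the CRE core in 1, that of AFF4 (7.08% of all), and the AP-1 motif in 0 (6.54% of all). The CCNT1 promoter held 3 matches to the ETS core, with 1 match each to the NF-Y motif, the SP and KLF motif and the E-box. Some of these matches overlap, as do 2 of the SP and KLF matches of MLLT3, and a match describes letters in this window and no bound factor.

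Most member genes had a peak at their start site in every library (start sites are taken from RefSeq, and a peak within 1 kb was counted). The outermost start site had a peak in all 12 libraries in 8 of the 10 genes, the exceptions being AFF3 and MLLT6, whereas this held for 53.9% of the 15812 protein-coding genes with a listed start site. The strength of a peak is given as the authors' fold enrichment over local background, which was not normalised between libraries, and as its percentile within the library.

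CCNT1, the cyclin of P-TEFb, had the start-site peak with the highest median of the members, 17.6-fold. Its fold enrichment was 18.9 and 17.6 in the MOLM13 controls, 17.7 and 19.5 in the MV4-11 controls and 13.7 and 15.1 in the OCI-AML3 controls. With VTP50469 the values were 16.2 and 17.7, 22 and 17.7, and 14.7 and 14.0 in the same order of lines. The 4 OCI-AML3 libraries lay below the other 8, and yet the peak stood at the 97.9th percentile or higher of its own library in all 12. ELL followed with a median of 14.0 and a range of 12.8 to 20.7-fold (94.1st percentile or higher), and 44 to 132 reads over the summit. A second listed start site of CCNT1 had a peak in 2 of 12 libraries, with 3.07-fold in MV4-11 treated library 2 and 3.96-fold in OCI-AML3 control 2. CDK9, the kinase subunit, had a weaker start-site peak of 6.26 to 9.47-fold.

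Among the scaffold genes, AFF4 had 9.32 to 16.4-fold at its start site. AFF1 has 2 start sites 72.3 kb apart, and both carried a peak in all libraries. At the first, the fold was 8.17 and 8.46 in MOLM13 controls, 8.92 and 9.90 in MV4-11 controls and 9.11 and 12.9 in OCI-AML3 controls, and 8.50 and 8.86, 9.31 and 8.55, and 6.21 and 7.03 with VTP50469. Both treated values were below both controls in OCI-AML3 and slightly above them in MOLM13, while they overlapped in MV4-11. At the second, the 12 values ran from 7.90 to 12.

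The start sites of AFF3 differed in the lines in which peaks were called. At the outermost site the fold was 7.24 to 9.93 in MOLM13 and 9.0 to 12.8 in MV4-11, whereas OCI-AML3 had 4.2 and 6.29 in the controls, 6.02 in the second treated library and no peak in the first. At the second site, 37.0 kb further into the gene, OCI-AML3 was the line with peaks in most libraries. All 4 OCI-AML3 libraries had a peak there (6.12 and 6.60 in controls, 5.35 and 4.90 with VTP50469), 1 of 4 MV4-11 libraries had one (4.76, control 2), and none of the MOLM13 libraries had. The OCI-AML3 summits lay 695 and 696 bp past the site in the controls and 321 and 297 bp past it with VTP50469. The strongest peak of treated library 2 did not overlap those of the controls, so the 4 libraries did not share 1 position. These second-site peaks rested on 7 to 9 summit reads. Both sites have the CpG-poor promoters printed above, and the difference between the sites is a description of called peaks with no test.

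MLLT1 (ENL), one of the histone readers, had a start-site peak that was lower in OCI-AML3. The fold was 9.38 and 11.5 in MOLM13 controls, 14.4 and 12.7 in MV4-11 controls and 5.91 and 7.92 in OCI-AML3 controls, and 10.5 and 11.4, 11.9 and 11.7, and 5.94 and 4.18 with VTP50469. The OCI-AML3 values did not overlap those of the other lines, and the reads over the summit were 6 to 12 there against 17 to 38 elsewhere. Ranked within each library, the region differed by 1.48 ± 0.30 (SE) normal-score units between MOLM13 and OCI-AML3 (limma, adjusted p = 0.0079) and by 1.51 ± 0.30 between MV4-11 and OCI-AML3 (adjusted p = 0.0056) when control and treated libraries were averaged, 4 against 4, a contrast chosen after seeing the data. At the same threshold 8.79% and 13.6% of the 23338 regions called in all libraries differed in these comparisons, and 4.42% between MOLM13 and MV4-11. Over the control libraries alone the MLLT1 difference between MV4-11 and OCI-AML3 was 1.35 (95% interval 0.44 to 2.26), and did not pass (adjusted p = 0.097). With both treatments averaged, the AFF4 start-site region was higher in OCI-AML3 than in MOLM13 (-1.09 ± 0.31 for MOLM13 minus OCI-AML3, adjusted p = 0.042). No other member region was called in this comparison of lines. In the controls alone, 0 of the 20 member regions were called, beside 1.12%, 2.14% and 2.94% of all such regions for MOLM13 against MV4-11, MOLM13 against OCI-AML3 and MV4-11 against OCI-AML3. At an unadjusted p under 0.05 the member regions numbered 1, 2 and 3, and all such regions 3544, 4072 and 4726 of 23338. The 1 for MOLM13 against MV4-11 lay at the start site of KANSL2, a neighbour in the CCNT1 locus. The same region was 1 of the 3 for MV4-11 against OCI-AML3.

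MLLT3 (AF9), the other reader and the partner in MOLM13, had a start-site peak in all libraries with no separation of the lines. The fold was 9.03 and 7.58 in MOLM13 controls, 8.89 and 12.1 in MV4-11 controls and 6.86 and 8.17 in OCI-AML3 controls, and 7.02 and 12.6, 8.66 and 8.56, and 7.09 and 9.14 with VTP50469. The rank difference of MOLM13 against MV4-11 controls was -0.04 (95% interval -1.03 to 0.96), and that of MOLM13 against OCI-AML3 controls was 0.26 (-0.73 to 1.26). MLLT10 had 7.12 to 12.8-fold. MLLT6 had the outermost start-site peak with the lowest median, 5.26, with 3.79 to 7.53-fold in 8 of 12 libraries, and it was called in 1 of 4 OCI-AML3 libraries. The MLLT6 promoter held 36 CpG, more than that of MLLT1, so CpG number and peak strength did not run together in these 2 genes.

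**Figure D1:**
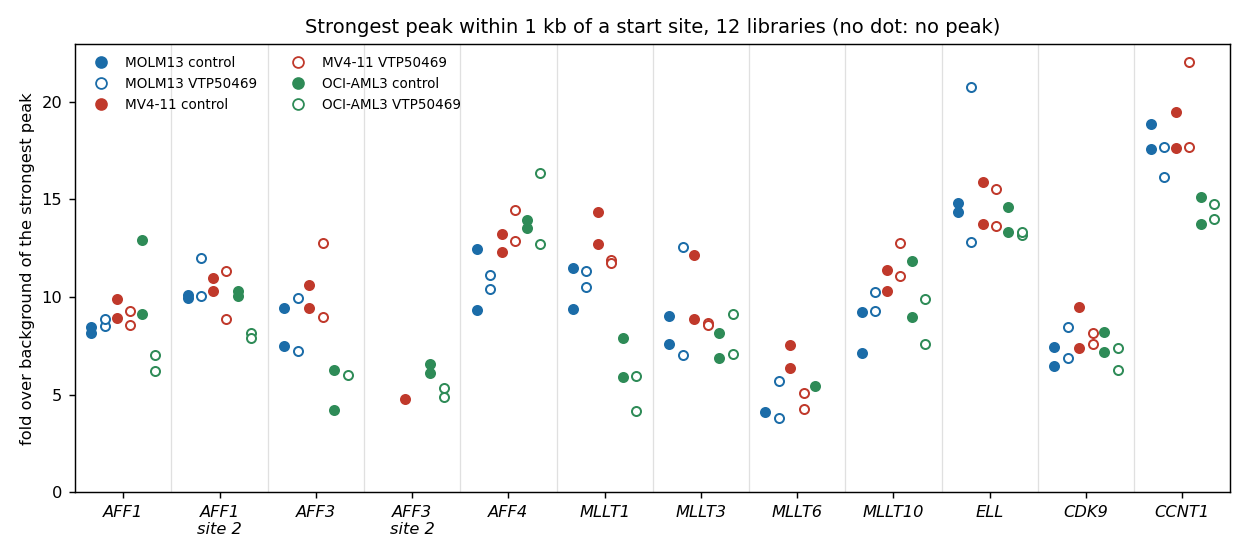
Fold enrichment over local background (y axis) of the strongest peak within 1 kb of the outermost start site of the 10 genes and of the second site of AFF1 and AFF3 (x axis), 1 point per library, with filled points for control and open points for VTP50469, coloured by line; no point is drawn where no peak was called. CCNT1 lies between 13.7 and 22, the OCI-AML3 points of MLLT1 between 4.18 and 7.92 lie below all others of that gene, and the second AFF3 site has points in OCI-AML3 and 1 in MV4-11.

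The loci differed widely in the number of peaks along the gene. The 10 loci together held 72 and 87 peaks in MOLM13 controls and 75 and 78 with VTP50469. MV4-11 had 134 and 141 peaks, then 108 and 140 with the inhibitor, and OCI-AML3 had 59 and 84, then 59 and 52. To account for the length of each list, a locus was expressed as its share, in peaks per 10000 peaks of the library, and shares were compared on the log2 scale after adding 0.5 peaks, with limma over all 17125 loci. AFF1 had the most peaks for its length among the long genes, with 9.62 peaks per 100 kb as a mean of the libraries, and stood at the 98.9th percentile of all loci by peak number. CDK9, a gene of 4759 bases in a locus of 24.8 kb, had 20.5 per 100 kb, at the 98.1st percentile of density. Within 1 kb of its start site, 1 to 4 separate peaks were called per library, so part of this density is 1 promoter called as several peaks. MLLT3 had 2.13 per 100 kb and AFF3 2.90, below the median of 6.79 over all loci. Of the partners of the fusions in MOLM13 and MV4-11, MLLT3 was at the 5.30th percentile of density and AFF1 at the 71.0th.

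**Figure D2:**
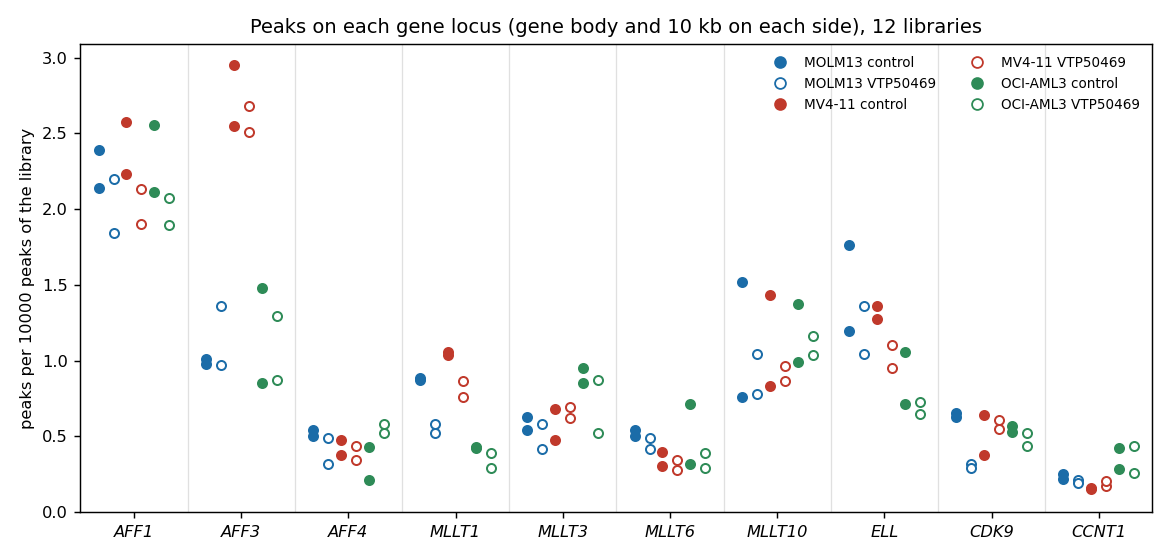
Share of each library's peaks that lie on each locus, in peaks per 10000 peaks (y axis, from 0), for the 10 genes (x axis), 1 point per library, with filled points for control and open points for VTP50469, coloured by line. The 4 MV4-11 points of AFF3, between 2.51 and 2.95, lie above all other points of that gene, and the 4 OCI-AML3 points of MLLT1, between 0.29 and 0.43, lie below all others of that gene.

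Among the control libraries, AFF3 had the largest difference of the 10 loci in both comparisons with MV4-11. The AFF3 locus (chr2:99545419-100142590, minus strand, with 10 kb on each side) held 32 and 39 peaks in MV4-11, 8 and 9 in MOLM13 and 6 and 14 in OCI-AML3. The treated libraries had 29 and 39, 13 and 10, and 10 and 6 peaks in the same order, so that every MV4-11 library was above every other. As a share, MOLM13 was lower than MV4-11 by 1.41 ± 0.26 (SE) on the log2 scale, or 2.65-fold (95% interval -1.95 to -0.86, limma adjusted p = 0.011), and MV4-11 was higher than OCI-AML3 by 1.23 ± 0.26, or 2.34-fold (0.68 to 1.77, adjusted p = 0.012). MOLM13 and OCI-AML3 did not differ beyond their spread (-0.18, -0.72 to 0.36, adjusted p = 0.79). AFF3 was the 1 member called for MOLM13 against MV4-11 and 1 of 2 for MV4-11 against OCI-AML3. In these comparisons 1.02% and 4.53% of all loci were called. For MOLM13 against OCI-AML3, 0 members were called, beside 3.42% of all loci. At an unadjusted p under 0.05 the members there numbered 2, and all loci 2910 of 17125.

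List length moved with this result. With lists cut to the same 68670 strongest peaks, AFF3 had 14, 11, 16 and 18 peaks in MV4-11 (controls, then treated), 6, 8, 8 and 6 in MOLM13 and 6, 9, 7 and 6 in OCI-AML3, and the groups still did not overlap. The differences between control groups were then -0.80 (adjusted p = 0.21) and 0.72 (adjusted p = 0.16), and neither was called. Leaving out any 1 of the 4 control libraries also ended the call against MOLM13 (adjusted p up to 0.19), and leaving out either MV4-11 control or OCI-AML3 control 1 ended that against OCI-AML3 (0.86 to 1.33, adjusted p 0.068 to 0.15). With control and treated libraries averaged, AFF3 was called in both (-1.27 and 1.22, adjusted p = 0.00057 and 0.00035), beside 4.52% and 20.5% of all loci.

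The MV4-11 peaks of AFF3 were spread over the gene body. Of 69 AFF3 regions, 60 were called in MV4-11, 21 in MOLM13 and 23 in OCI-AML3, and 19, 2 and 1 of these were in all 4 libraries of the line. None was called in all 12 libraries. Of the AFF3 regions, 7 were called in all 4 MV4-11 libraries and in no other library, of 8 such regions over the 10 loci (3.15% of the 254, against 2.01% of all regions). All 7 lay in the gene body, 80.1 to 481 kb from the outermost start site.

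The region at chr2:99878053-99878244, 264 kb into AFF3, had a fold of 7.65 and 5.89 in the MV4-11 controls and 7.65 and 7.36 with VTP50469. That at chr2:99660911-99661319, 481 kb into the gene, had 5.41 and 7.14, then 6.0 and 8.65. That at chr2:99898431-99898698, 244 kb into the gene, had 5.10 and 5.35, then 5.40 and 5.52. In all 3 the treated values overlapped or exceeded the controls. A stronger region at chr2:99827148-99827659, named after its values were seen, had 13.8 to 17.2-fold in MV4-11, 4.54 to 10.6 in 3 MOLM13 libraries and 5.35 in 1 OCI-AML3 library. With lists of equal number, 1 of the 8 MV4-11 regions was still called in all 4 MV4-11 libraries and in no other line.

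**Figure D3:**
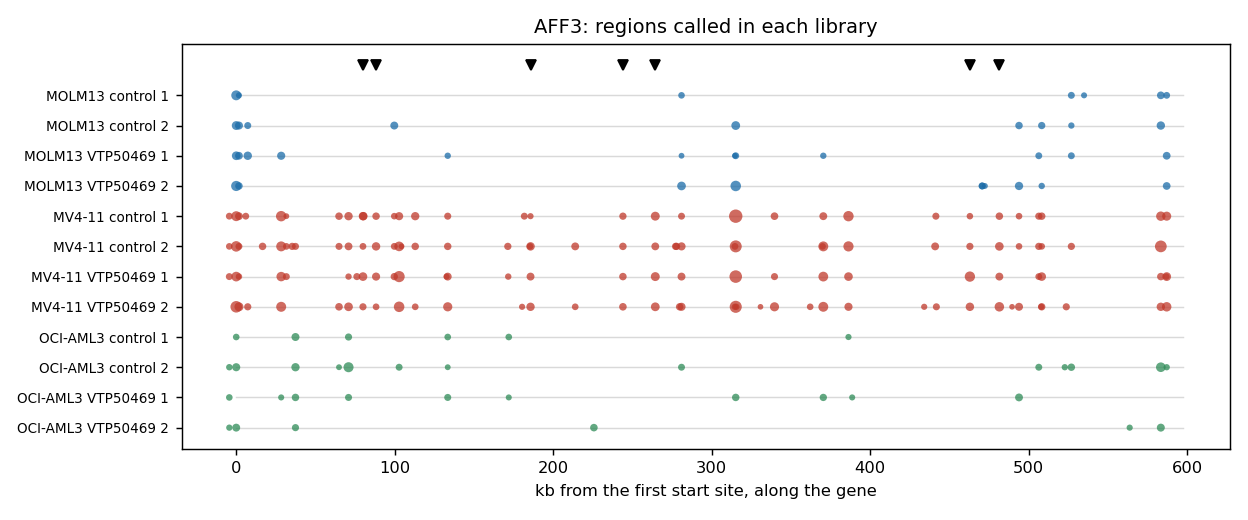
Regions of the AFF3 locus called in each of the 12 libraries (rows), placed by their distance in kb from the outermost start site along the gene (x axis), with the size of a dot following the fold enrichment and its colour the line; black triangles mark regions called in all 4 libraries of 1 line and in no other. The 7 triangles above the rows lie between 80.1 and 481 kb, and all stand for MV4-11 regions.

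MLLT1 was the other member whose locus (chr19:6210381-6279975, minus strand, with 10 kb on each side) differed between control lines. It held 13 and 14 peaks in MV4-11 controls, 7 and 8 in MOLM13 controls and 3 and 4 in OCI-AML3 controls, and 10 and 11, 5 and 6, and 3 and 2 with VTP50469. The numbers of the 3 lines did not overlap, while the shares of MOLM13 (0.52 to 0.88 per 10000 peaks) and MV4-11 (0.76 to 1.06) did. As a share, MV4-11 was higher than OCI-AML3 by 1.16 ± 0.26 (2.24-fold, 95% interval 0.61 to 1.71, adjusted p = 0.018). MOLM13 was higher than OCI-AML3 by 0.94 ± 0.26, which missed the threshold in the controls (adjusted p = 0.055) and passed with both treatments averaged (0.75 ± 0.19, adjusted p = 0.013, beside 10.9% of all loci). The MV4-11 difference was lost with lists of equal number (0.69, adjusted p = 0.17), without any 1 of the 4 control libraries compared (1.13 to 1.19, adjusted p 0.051 to 0.16), and with peaks of -log10 q of at least 5 alone, where it was 0.08 (adjusted p = 0.90).

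Among the remaining members, ELL and CCNT1 were not called in the controls and were called with both treatments averaged. ELL was higher in MOLM13 than in OCI-AML3 (0.71 ± 0.18, adjusted p = 0.018, 10 to 14 peaks against 5 to 10), and CCNT1 was lower in MV4-11 than in OCI-AML3 (-0.96 ± 0.27, adjusted p = 0.019). In these 2 comparisons 10.9% and 20.5% of all loci were called. In the controls alone, ELL was called for MOLM13 against OCI-AML3 with lists of equal number (1.23 ± 0.16, adjusted p = 0.013) and with a -log10 q of at least 5 (1.19 ± 0.25, adjusted p = 0.021), and for MV4-11 against OCI-AML3 with that q threshold (0.75 ± 0.25, adjusted p = 0.042). Of all loci, 2.35%, 3.60% and 25.2% were called in these fits, in the same order. CCNT1 was called in the controls with the q threshold for MOLM13 against MV4-11 (0.98 ± 0.27, adjusted p = 0.045) and MV4-11 against OCI-AML3 (-1.37 ± 0.27, adjusted p = 0.010), and in the latter also with a pseudocount of 2 peaks and with the share of covered bases. The q threshold called 9.73% of all loci in the former comparison and 25.2% in the latter. In the latter the pseudocount called 9.73% and covered bases 22.6%. The CCNT1 locus held 2 to 4 peaks in every library, with 2 and 2 in MV4-11 controls and 2 and 4 in OCI-AML3 controls. With VTP50469 it held 2 and 3 in each of these lines. With lists of equal number the CCNT1 locus held 2 and 2 peaks in MV4-11 controls and 2 and 3 in OCI-AML3 controls. The difference between these control groups was then -0.24, against -1.08 in the main fit, and was not called. The cause of this change was not tested. AFF4 had 2 to 6 peaks, MLLT6 2 to 5, CDK9 3 to 8 and MLLT10 6 to 18, and none of these 4 loci was called in the comparisons of lines above.

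Only 20 of the 254 regions (7.87%, against 6.97% of all regions) were called in all 12 libraries. Of these, 10 lay at a start site of the gene itself, 4 at that of a neighbour inside the locus, 4 in the gene body, and 1 each upstream and downstream. By gene, AFF1 had 5, MLLT10 4, and AFF4, MLLT6, ELL and CCNT1 2 each, with 1 each in MLLT1, MLLT3 and CDK9 and 0 in AFF3. The neighbours with such a start site included GDF9 and UQCRQ in the AFF4 locus, CISD3 in that of MLLT6, SKIDA1 in that of MLLT10 and KANSL2 in that of CCNT1, so that part of each count belongs to another gene. Of all 254 regions, 114 were called in a single library.

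The partner genes of the fusions were examined along their whole length. MLLT3 (chr9:20341669-20622499, minus strand) had few peaks for a gene of 281 kb: 5 and 5 in MOLM13 controls and 4 and 6 with VTP50469, 6 and 9 then 8 and 9 in MV4-11, and 6 and 9 then 4 and 6 in OCI-AML3. The share of MLLT3 in MOLM13 controls differed from that in MV4-11 controls by 0.08 (95% interval -0.56 to 0.71, adjusted p = 0.92) and from that in OCI-AML3 controls by -0.58 (-1.22 to 0.05, adjusted p = 0.34). The difference between MV4-11 and OCI-AML3 controls was -0.66 (-1.29 to -0.02, adjusted p = 0.22). No difference of MLLT3 was called, and the intervals, which reach past 1 on the log2 scale against OCI-AML3, do not show that the lines were alike.

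Although the number was similar, the distal regions of MLLT3 depended on the line. The region at chr9:20358177-20358784, 264 kb into the gene, was called in all 4 MOLM13 libraries, with 7.31 and 8.56 in controls and 7.76 and 11.8 with VTP50469, and elsewhere only in MV4-11 control 2 (4.76). The region at chr9:20353204-20353387, 269 kb into the gene, was called in all 4 MV4-11 libraries only, with 9.62 and 7.30 in controls and 6.0 and 3.66 with VTP50469. The region at chr9:20562122-20562357, 60.3 kb into the gene, was called in all 4 OCI-AML3 libraries only, with 5.11 and 5.10 in controls and 5.97 and 5.33 with VTP50469. It was the 1 region of this kind for OCI-AML3 over the 10 loci (0.394%, against 0.245% of all regions), and MOLM13 had 0 (0.124% of all regions). A region at chr9:20508348-20508589, 114 kb into the gene, was called in 3 MOLM13 and 4 MV4-11 libraries, with folds of 4.04 to 6.75, and in 0 of 4 OCI-AML3 libraries. Of the 24 MLLT3 regions, 14 were called in a single library, and 1, at the start site, in all 12.

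AFF1 (chr4:86935011-87141039, plus strand), the partner in MV4-11, had more peaks on a shorter gene. It held 17 and 22 peaks in MOLM13 controls and 21 and 19 with VTP50469, 28 and 34 then 22 and 31 in MV4-11, and 18 and 20 then 16 and 13 in OCI-AML3. Its share in the controls was 2.14 and 2.39 per 10000 peaks for MOLM13, 2.23 and 2.57 for MV4-11 and 2.55 and 2.12 for OCI-AML3, and the 3 lines overlapped. The share differed by -0.07 (95% interval -0.46 to 0.32) between MOLM13 and MV4-11, by -0.04 (-0.43 to 0.35) between MOLM13 and OCI-AML3 and by 0.03 (-0.36 to 0.42) between MV4-11 and OCI-AML3, with adjusted p of 0.88 to 0.95. These were the narrowest intervals of the 10 members.

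In AFF1, 5 regions were called in all 12 libraries. Beside the start-site regions at chr4:86934655-86936627 and chr4:87006495-87007443, these were the gene-body regions at chr4:86961008-86961978, 26.5 kb into the gene (6.08 to 11.7-fold), and chr4:87093375-87094039, 159 kb into the gene (5.25 to 8.76-fold), and a region downstream of the gene at chr4:87150776-87151134 (5.56 to 9.89-fold). A region at chr4:86981722-86982171, 46.9 kb into the gene and named after its values were seen, was called in 11 libraries, with 9.40 to 11.6-fold in MV4-11 against 4.15 to 6.23 in the other lines, which did not overlap. In all 4 libraries of a line, 15 of 46 AFF1 regions were called in MV4-11, 7 of 32 in MOLM13 and 8 of 29 in OCI-AML3.

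**Figure D4:**
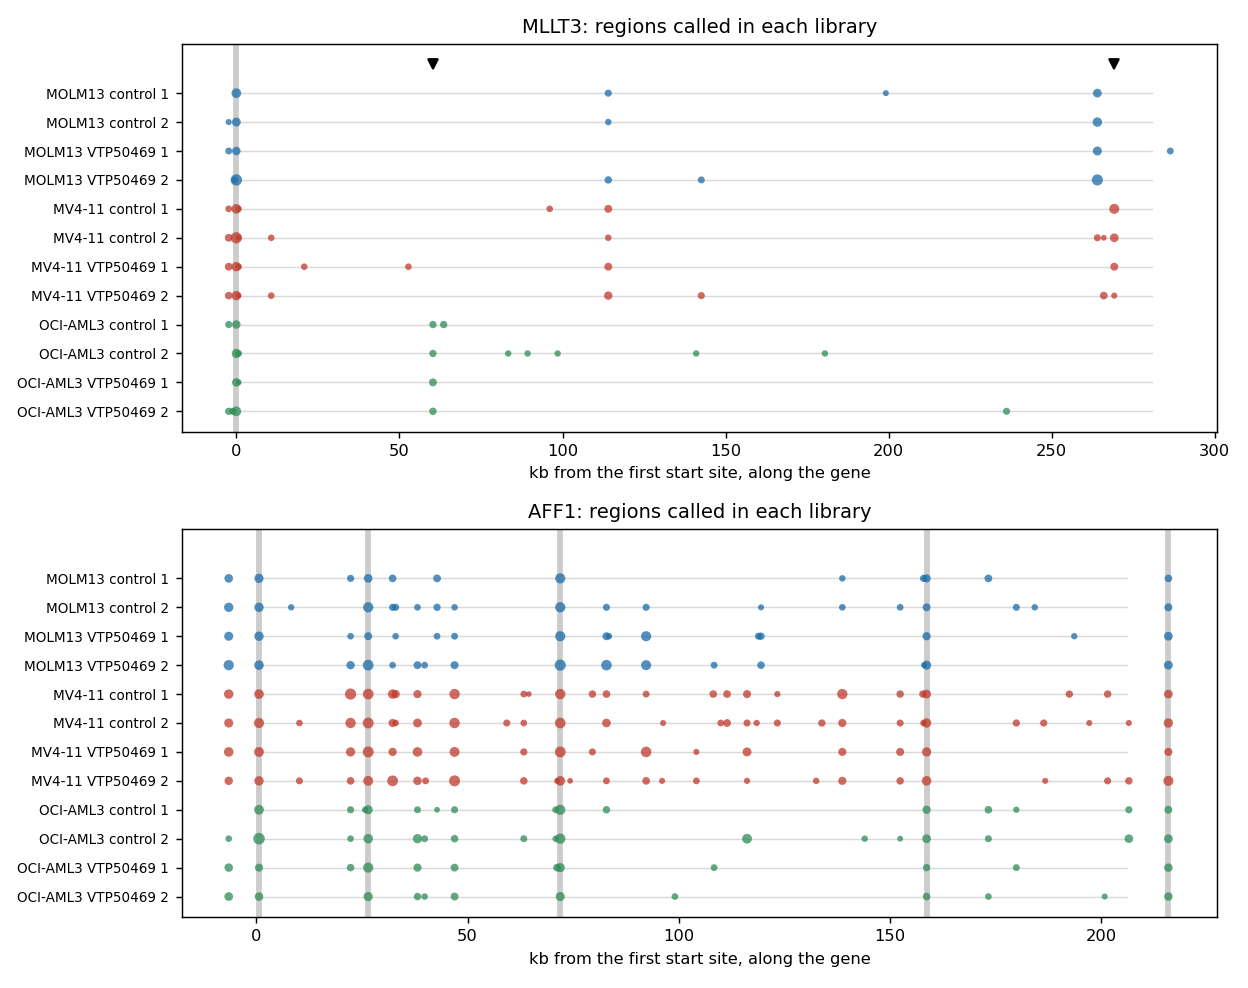
Regions of the MLLT3 and AFF1 loci called in each of the 12 libraries (rows), placed by their distance in kb from the outermost start site along the gene (x axis), with the size of a dot following the fold enrichment and its colour the line; grey bars mark regions called in all 12 libraries and black triangles those called in all 4 libraries of 1 line only. MLLT3 has 1 grey bar and triangles at 60.3 kb (OCI-AML3) and 269 kb (MV4-11), and AFF1 has 5 grey bars.

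Treatment with VTP50469 was then compared with control in each line. No member locus passed the threshold in any line or as the mean of the 3 lines, where 0.0584% (MOLM13), 0% (MV4-11), 0.0117% (OCI-AML3) and 0% (mean) of all loci were called. At an unadjusted p under 0.05 the members numbered 2, 0, 1 and 1 of 10, and all loci 1178, 465, 1363 and 1051 of 17125. The median log2 shift of the 10 loci was -0.25 for MOLM13, -0.14 for MV4-11 and -0.19 for OCI-AML3, beside -0.12, -0.01 and 0.08 over all loci. Together the 10 loci took 9.07 and 9.44 per 10000 peaks in MOLM13 controls and 7.85 and 7.57 with VTP50469, 10.7 and 10.7 then 9.34 and 9.63 in MV4-11, and 8.37 and 8.89 then 7.65 and 7.57 in OCI-AML3. Both treated libraries were below both controls in each line, which is a description of a chosen set with no test. With lists of equal number the sums were 64 and 65 peaks in MOLM13 controls and 59 and 56 with VTP50469, 74 and 62 then 68 and 72 in MV4-11, and 58 and 63 then 54 and 52 in OCI-AML3, so that the groups overlapped in MV4-11.

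MLLT1 and CDK9 had the largest negative shifts in MOLM13. CDK9 had 5 and 6 peaks in the MOLM13 controls and 3 and 3 with VTP50469, a shift of -0.99 ± 0.30 (95% interval -1.62 to -0.35, limma adjusted p = 0.51). Over the alternative settings the MOLM13 shift ran from -1.01 to -0.09, the last with the share of covered bases. In MV4-11 it had 8 and 5 peaks, then 7 and 8 (0.21, -0.42 to 0.85), and in OCI-AML3 4 and 5, then 4 and 3 (-0.16, -0.80 to 0.47). The MOLM13 shift of CDK9 was lower than that in MV4-11 by 1.20 on the log2 scale (-2.10 to -0.30), with an adjusted p of 0.99. MLLT1 had a shift of -0.63 (-1.18 to -0.08, adjusted p = 0.67) in MOLM13, -0.36 (-0.91 to 0.19) in MV4-11 and -0.26 (-0.81 to 0.29) in OCI-AML3, and its mean over the lines was -0.42 ± 0.15 (-0.73 to -0.10, adjusted p = 0.72). The treated libraries of MLLT1 had a smaller share than both controls in all 3 lines, but with lists of equal number MV4-11 had 7 and 5 peaks, then 6 and 6, and OCI-AML3 3 and 4, then 3 and 2, which overlapped or met. Over the alternative settings the MLLT1 shift ran from -0.82 to -0.09 in MOLM13, from -0.37 to 0.17 in MV4-11 and from -1.62 to -0.02 in OCI-AML3. AFF4 had the largest positive shift, in OCI-AML3, with 3 and 2 peaks in controls and 4 and 4 with VTP50469 (0.77, 0.04 to 1.5, adjusted p = 0.60).

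For the partner genes the shifts were small beside their intervals. MLLT3 shifted by -0.24 (95% interval -0.87 to 0.39) in MOLM13, where it is the partner, by 0.18 (-0.45 to 0.82) in MV4-11 and by -0.37 (-1.01 to 0.26) in OCI-AML3. AFF1 shifted by -0.25 (-0.64 to 0.15) in MV4-11, where it is the partner, by -0.17 (-0.56 to 0.22) in MOLM13 and by -0.22 (-0.61 to 0.18) in OCI-AML3. Over the lines the mean was -0.14 (-0.51 to 0.22) for MLLT3 and -0.21 (-0.44 to 0.02) for AFF1. The difference of the shifts between lines was called for 0 members in each pair (0%, 0.00584% and 0% of all loci for MOLM13 against MV4-11, MOLM13 against OCI-AML3 and MV4-11 against OCI-AML3). For MLLT3 the shift in MOLM13 minus that in MV4-11 was -0.42 (-1.32 to 0.47), and for AFF1 it was 0.08 (-0.48 to 0.63).

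**Figure D5:**
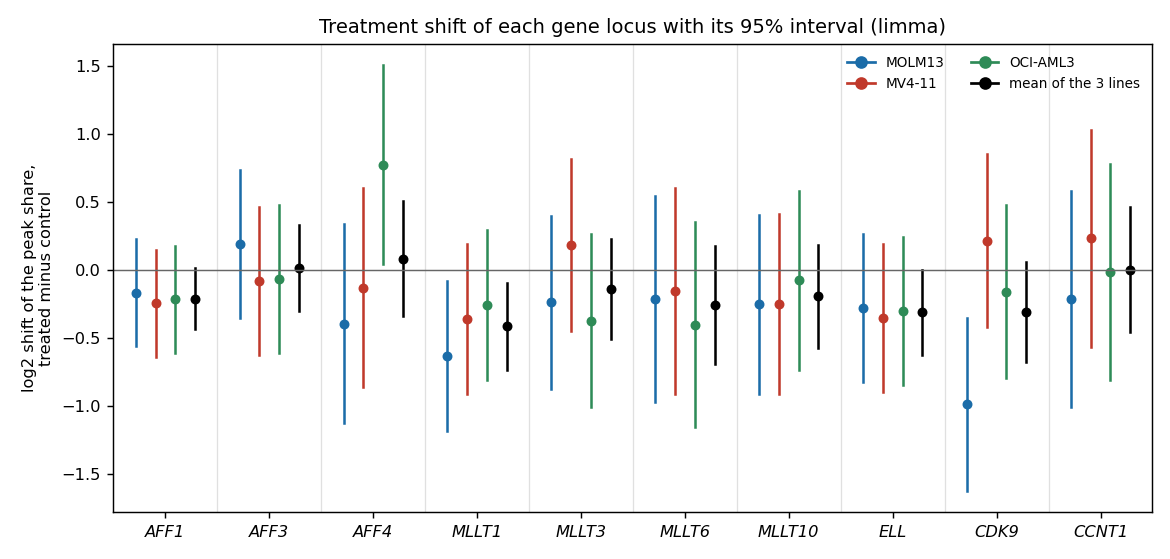
Log2 shift of the peak share, treated minus control (y axis), for the 10 gene loci (x axis), as the limma estimate with its 95% interval in each line, 2 against 2 libraries, and as the mean of the 3 lines in black. All but 4 intervals include 0: those of MLLT1 and CDK9 in MOLM13, AFF4 in OCI-AML3 and the mean of MLLT1, none of which passed after adjustment.

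Regions were merged within each line, and were counted as lost where both control libraries of a line had a peak and the treated ones had none, and as gained in the reverse case. In MOLM13, 2 of 128 member regions were lost (1.56%, against 1.3% of all regions of the line) and 0 gained (3.22% of all regions). In MV4-11, 6 of 204 were lost (2.94% against 2.75%) and 3 gained (1.47% against 1.92%). In OCI-AML3, 6 of 114 were lost (5.26% against 2.57%) and 2 gained (1.75% against 1.32%). No region was lost in one line and gained in another, and 0 MLLT3 regions were lost or gained in any line. These counts rest on presence in 2 against 2 libraries, which cannot pass a test.

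AFF1 had 6 of the 14 lost regions. It also held many of the member regions, 32 of 128 in MOLM13, 46 of 204 in MV4-11 and 29 of 114 in OCI-AML3. The one with the most significant peaks was lost in MV4-11, at chr4:87046401-87046535, 111 kb into the gene, with 5.72 and 5.86-fold in the controls. The next were at chr4:87141572-87141714, just past the end of the gene, lost in OCI-AML3 (4.90 and 7.15), and at chr4:86967814-86967999, 32.9 kb into the gene, lost in MV4-11 (6.60 and 4.22). The others were at chr4:87073958-87074114 in MOLM13 (4.04 and 4.31), chr4:87058292-87058438 in MV4-11 (3.71 and 4.85) and chr4:87005792-87005951 in OCI-AML3 (4.28 and 3.95). In AFF1, 1 region was gained, in MV4-11, at chr4:87039112-87039287 (3.62 and 4.44).

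In MLLT1, the region at chr19:6273796-6274187, 5.98 kb into the gene, was lost in OCI-AML3 (5.62 and 8.37), and that at chr19:6232740-6232918 in MV4-11 (3.85 and 3.49). With the peaks of all lines merged, the first lay in a region called in 11 libraries. Of these, 3 were OCI-AML3 libraries, so a treated library of that line had a peak in the wider region. ELL lost chr19:18496309-18496422 (4.88 and 5.94) and 1 further region in OCI-AML3, and chr19:18470225-18470464 (3.70 and 7.38) in MV4-11, and gained chr19:18437028-18437267 in OCI-AML3 (3.51 and 4.52), at the start site of ISYNA1. MLLT10 lost chr10:21675137-21675391 (8.41 and 5.35) and gained chr10:21594037-21594231 (7.20 and 3.68), both in MV4-11. The region gained in the CDK9 locus in MV4-11, chr9:127779122-127779336 (3.86 and 3.96), lay at the start site of SH2D3C, and the region lost in the MLLT6 locus in OCI-AML3, chr17:38729876-38730009 (4.10 and 4.88), at that of CISD3. The latter lay beside a region called in all 4 OCI-AML3 libraries, and inside one that was called in all 12 libraries when the peaks of all lines were merged. Thus 3 of the 19 lost or gained regions belonged to the start site of a neighbour.

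When the peaks of all lines were merged, many of these regions included peaks of other lines. That of ELL at chr19:18496309-18496422 was then called in 9 libraries. Others did not, such as that of AFF1 at chr4:87046401-87046535, called in the 2 MV4-11 controls alone. A pair of the shared regions is given here by line. The AFF3 region at chr2:99559159-99559375, 583 kb into the gene, was lost in MOLM13 (5.69 and 6.74 in the controls). In MV4-11 it had 8.49 and 13.2 in the controls and 5.40 and 6.76 with VTP50469, a rank shift of -1.25 ± 0.46 (limma, adjusted p = 0.74). In OCI-AML3 it was called in control 2 (8.88) and treated library 2 (6.13). The AFF4 region at chr5:132883345-132883668, 80.1 kb into the gene, was gained in OCI-AML3 (8.33 and 4.29). In MOLM13 it had 5.58 and 5.79 in the controls and 10.7 and 9.33 with VTP50469 (1.22 ± 0.45, adjusted p = 0.88), while the MV4-11 values overlapped, with 10.2 and 8.33, then 5.40 and 12.

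The strength of regions called in all 4 libraries of a line was compared within that line. Of 34 member regions of MOLM13, 74 of MV4-11 and 27 of OCI-AML3, 0 were called, as were 0%, 0% and 0% of all such regions. At an unadjusted p under 0.05, limma gave 1, 6 and 2 member regions, and 2329, 4613 and 1797 regions overall. Among the 6 in MV4-11 was the MLLT3 region called in that line only, given above, with a shift of -1.46 ± 0.55 (adjusted p = 0.74), and the AFF3 region at chr2:99679600-99679809 with a shift in the opposite direction, from 4.09 and 4.95 to 10.2 and 6.85 (1.67 ± 0.46, adjusted p = 0.74). For the start site of AFF1 in OCI-AML3 the shift was -1.08 ± 0.47 (adjusted p = 0.86).

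Other genes of the same machinery were counted in the same fits, as 26 further elongation genes and 12 further MLL1 fusion partners, all of which were tested. With VTP50469, 0 of the 26 and 0 of the 12 were called in any line or over the lines, and 1 of the 26 had an unadjusted p under 0.05 in MV4-11, 1 in OCI-AML3, 0 in MOLM13 and 0 over the lines. Of the 12 partners, 1 had one in MOLM13, 0 in MV4-11, 1 in OCI-AML3 and 1 over the lines. The median shift of the elongation genes was -0.21 for MOLM13, -0.01 for MV4-11 and 0.17 for OCI-AML3, and that of the partners -0.09, -0.08 and 0.34. The smallest p values over the lines were those of EPS15 downwards (-0.57 ± 0.23, adjusted p = 0.75) and AFDN upwards (0.34 ± 0.17, adjusted p = 0.83), both fusion partners.

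Between control lines, 0 of the 12 further partners were called in any pair. Of the 26 elongation genes, 0 were called for MOLM13 against MV4-11 (1.02% of all loci) and 1 for MOLM13 against OCI-AML3 (3.42%). For MV4-11 against OCI-AML3, where 4.53% of all loci were called, CTR9 and CDK13 were among those called. At an unadjusted p under 0.05, limma gave 7 of the 26 and 5 of the 12 in that pair, and 3633 of 17125 loci overall. Neither list was tested against all loci. CTR9, a subunit of the PAF1 complex, had 6 and 7 peaks in MV4-11, 1 and 2 in MOLM13 and 1 and 1 in OCI-AML3, and was higher in MV4-11 than in OCI-AML3 (1.56 ± 0.37, limma adjusted p = 0.023). The same direction was found for the kinase gene CDK13, with 13 and 14 peaks against 4 and 4 (0.98 ± 0.27, adjusted p = 0.042). CDC73, another subunit of the PAF1 complex, was lower in MOLM13 (4 and 3 peaks) than in OCI-AML3 (9 and 11), by 1.46 ± 0.30 (adjusted p = 0.0095). MV4-11, the line with the longest lists, was part of the CTR9 and CDK13 comparisons and not of that of CDC73. Any part of list length in these differences was not tested.

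The genes whose peak share ran most like that of MLLT3 over the 12 libraries, among 1377 genes with a mean of at least 10 peaks, were NOS1AP (Pearson r = 0.80), PTPRN2 (0.80) and UST (0.78). For AFF1 they were DRC8 (0.78), CHD2 (0.76) and PIP4K2A (0.74), among 1376 genes. The 12 points share lines and list lengths, and these are the highest of many values, so they are given as a description.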

How the data were processed

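Peak lists of 12 bulk ATAC-seq libraries were used, 1 per library, called on each library and not on pooled libraries. According to the submitters' processing notes reads were handled on hg38 with Trimmomatic 0.33 and Bowtie 1.1.2 after bcl2fastq 2.17, and peaks and tracks with MACS2 2.1.0 and deepTools, while the supplementary methods of the study name another aligner. How duplicates were treated and whether read ends were shifted for Tn5 is not given in the sources used here. The authors' score of a peak follows its −log10 q. The deposited fold (ratio) compares the summit with the background around it in that library. The deposited columns of −log10 p and −log10 q refer to the same summit. The deposited summit offset, a distance from the peak start, was used to place the summit. The authors had normalised nothing between libraries, and read totals are not in the lists, so summit reads were recovered from fold and −log10 p within a tolerance of 0.001 (at least 99.99% of the peaks of each library).

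Peaks on chromosomes 1 to 22 and X that overlapped a gene body with 10 kb on each side by 1 bp or more were counted for protein-coding genes of RefSeq (GRCh38.p14). Loci with a mean of at least 1 peak were compared by limma 3.58.1 (R 4.3.3, two-sided, Benjamini-Hochberg over all loci, called at an adjusted p under 0.05) on log2 of the peaks per 10000 peaks with 0.5 peaks added, over all 12 libraries in 6 groups. Region strength was compared by limma on normal scores of the rank of the fold within a library. The fits were tested on simulated data. Tables were handled with Python 3.11.15, pandas 2.3.3, numpy 2.4.6 and scipy 1.17.1, and plots were drawn with matplotlib 3.10.9.

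Groups and replicate numbers come from the sample titles. The labels do not say that replicates came from separate cultures, so p-values measure the spread between these libraries, which may be technical. The members, the gene lists and the markers were chosen with earlier results of these data known. All 10 members are named. Of the lost, gained and line-restricted regions, the 3 per gene with the highest lower −log10 q are given by position, MLLT3 and AFF1 in full, and of the other lists the genes called or, with none called, those with the smallest p each way. The result of 1 gene of the elongation list is not reported here. Alternatives were flanks of 5 kb and none, a −log10 q of at least 5, summits inside the locus, lists of 68670 peaks, 2 peaks added, no filter, covered bases, an overlap of 50 bp, −log10 p and log2 fold as strength, a replicate block, leaving out each library, and, added after seeing the data, line differences averaged over control and treated libraries. The study's own comparison used reads and could not be run on peak lists.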

Additional observations from a re-analysis of the deposited data

How the results depend on the processing

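With VTP50469, 0 members were called in any line, over the lines or in the differences between lines under every alternative that was run for these fits. Results that moved were the comparisons of control lines and the counts of regions. With lists of equal number, the members called fell from 1 to 0 for MOLM13 against MV4-11 and from 2 to 0 for MV4-11 against OCI-AML3, and the regions called in MV4-11 alone from 8 to 1. With a -log10 q of at least 5, 2 members were called for MOLM13 against MV4-11, beside 9.73% of all loci. For MOLM13 against OCI-AML3, where 0 were called, 1 was with that threshold, 1 with lists of equal number and 1 without a filter, and 2 with both treatments averaged. Of all loci, 3.60%, 2.35%, 3.32% and 10.9% were called in these fits, in the same order. Regions lost in MOLM13 rose from 2 to 5 with lists of equal number, and those gained from 0 to 6 with the q threshold, 1 with an overlap of 50 bp and 3 with equal lists. In MV4-11 the 6 lost became 2 with the q threshold and 1 with equal lists, and in OCI-AML3 the 6 lost became 2 with the q threshold and the 2 gained became 4 with equal lists. Regions called in MOLM13 alone went from 0 to 1 with the q threshold and with equal lists, and those in OCI-AML3 alone from 1 to 0 and to 2. Strength was compared between lines for the 20 member regions called in all 12 libraries, start sites and others. For MV4-11 against OCI-AML3 the regions called went from 0 to 1 with log2 fold and with both treatments averaged. For MOLM13 against OCI-AML3 they went from 0 to 2 with both treatments averaged. The cause of these changes was not tested.

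Leaving out 1 library gave 0 to 1 members called for both MOLM13 comparisons and 0 to 2 for MV4-11 against OCI-AML3. It gave 7 to 17 lost and 4 to 17 gained regions in MOLM13, 12 to 37 and 5 to 33 in MV4-11, and 7 to 37 and 3 to 14 in OCI-AML3, since a single library then decides one side. Regions called in 1 line alone were 0 to 1, 8 to 12 and 1 to 2, for MOLM13, MV4-11 and OCI-AML3. Over all loci, the number called without 1 library was 41 to 229 for MOLM13 against MV4-11 (175 with all libraries), 263 to 754 (586) and 116 to 948 (775) for the other control comparisons, and other settings gave 97 to 2452, 380 to 2129 and 361 to 3935. With VTP50469 other settings called 0 to 38 loci in MOLM13 (10), 1 to 46 in OCI-AML3 (2), 0 in MV4-11 and 0 to 13 over the lines (0).

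Same-numbered control and treated libraries did not deviate together (correlation 0.027, -0.013 and -0.00495 over 17125 loci in MOLM13, MV4-11 and OCI-AML3). The labels do not say whether such libraries were set up together. This correlation cannot settle it, since loci held few peaks (median of the locus means 3.75). With the replicate block the same member calls were made, with adjusted p of 0.033 and 0.025 for AFF3 and 0.036 for MLLT1.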
